A study of Rattus norvegicus with 8 samples.

Results

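The transcriptional difference that ethylene glycol made in the renal cortex of rats that also received phlorizin was read from 1 pair of arrays, out of 8 arrays in the series. The pair was taken by its labels. It holds the cortex of male Sprague-Dawley rats, 10 weeks old, given ethylene glycol, alfacalcidol and phlorizin (EG with phlorizin), and the cortex of rats of the same strain, sex and age given phlorizin without ethylene glycol (phlorizin). Ethylene glycol and alfacalcidol were given for 2 weeks to induce renal stones, so both agents separate the arrays, and their parts cannot be told apart. The cortex of rats given ethylene glycol and alfacalcidol without phlorizin (EG), the cortex of control rats (control), and the 4 arrays of the outer medulla under the same treatments were used for comparison. The study asked how inhibition of SGLT2 relates to stone formation. The dose and route of phlorizin and the number of animals behind an array are not stated in the labels. Each kidney was split into both zones, so cortex and outer medulla arrays of 1 treatment can share animals. With 1 array per group, none of the differences has a replicate check and no test was possible.

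Ethylene glycol is oxidised to oxalate, which forms calcium oxalate crystals in the tubule, and alfacalcidol, a precursor of active vitamin D, adds to the calcium load. Crystals injure tubule cells, which then produce injury proteins such as kidney injury molecule 1 and the crystal-binding protein osteopontin, and draw in macrophages. Phlorizin is a plant glucoside that blocks the sodium-glucose cotransporters SGLT1 and SGLT2, which recover filtered glucose in the proximal tubule, the main cell type of the cortex.

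The values are log2 expression values, so that a difference of 1 is a 2-fold difference. Of 23188 probe sets for transcripts, 13279 reached 7.48, the median of all transcript values, on at least 1 of the 8 arrays and were compared. Array medians lay between 7.39 and 7.58, and 23 background probes averaged 5.55 in EG with phlorizin and 5.58 in phlorizin. A gene below the background mean on 1 of the compared arrays has only a bound there, and its difference is given as "at least" the distance of the other array to background. The bound is set by the background probes alone, and control probe sets named neg, described below, averaged higher. The cortex label was checked against marker genes. All 6 markers of the early proximal tubule, SGLT2 (Slc5a2) and megalin (Lrp2) among them, lay between 16.2 and 18.2 in EG with phlorizin and between 16.2 and 18.4 in phlorizin. None of the 3 markers of inner medulla and papilla, 2 of neutrophils, 2 of lymphocytes and 2 of liver stood 1 or more above background on either array. Of 2 muscle markers Ckm stood more than 1 above background, at 7.17 in EG with phlorizin and 6.96 in phlorizin. The fat marker Adipoq had 9.83 in EG with phlorizin and 9.81 in phlorizin.

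EG with phlorizin was at least 1 higher than phlorizin at 322 probe sets, or 2.42% of those compared, and at least 1 lower at 205, or 1.54%. The median difference was -0.05, and 79.5% of probe sets lay within 0.5 of each other on the 2 arrays. A size of 2 was reached by 33 probe sets upwards and 11 downwards, and a size of 3 by 8 upwards and 2 downwards. The calls were spread unevenly over expression levels. Among the 3320 probe sets of lowest mean level 154 were higher and 66 lower, against 39 higher and 50 lower among the 3320 of highest level. Control probe sets gave a measure of how often 2 arrays differ without a known transcript behind it. Of 751 control probe sets named neg that passed the same limit on level, 28 (3.73%) were at least 1 higher in EG with phlorizin and 62 (8.26%) at least 1 lower, shares above those of the transcripts. All 1153 control probe sets named neg averaged 7.50 in EG with phlorizin and 7.64 in phlorizin, and 261 of the 322 higher and 194 of the 205 lower transcripts exceeded that mean on their brighter array. Control probe sets named pos were brighter, with means of 10.91 in EG with phlorizin and 11.03 in phlorizin. Of 365 past the limit on level, 15 (4.11%) stood 1 or more below phlorizin in EG with phlorizin, and 4 (1.10%) above. The transcript shares were 1.54% lower and 2.42% higher. A difference near 1 is therefore of a size that control probe sets of both kinds showed. The text below rests first on the larger differences and on gene groups, and single differences near 1 are named with this limit.

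**Figure D1:**
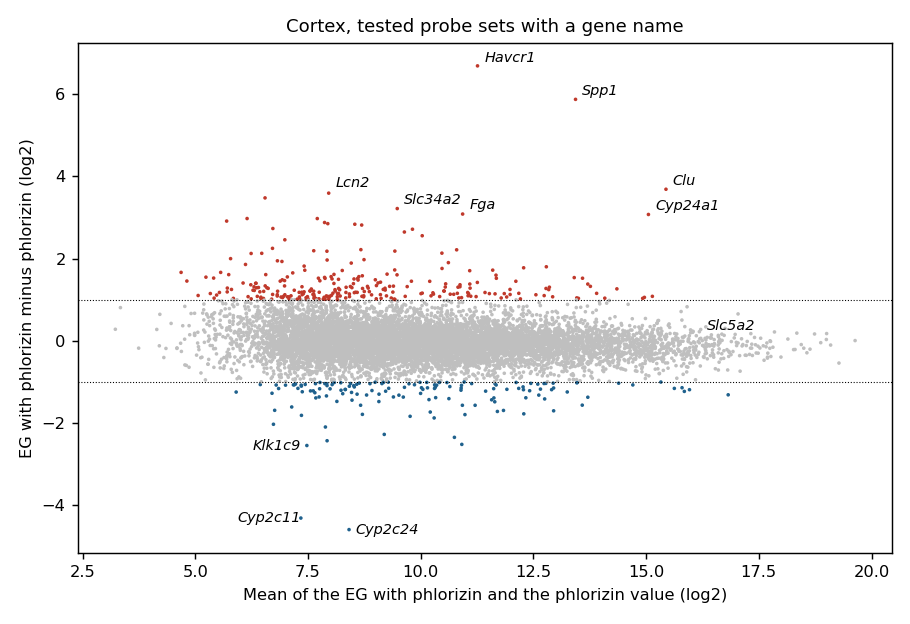
Difference between EG with phlorizin and phlorizin in the cortex (y axis, log2) against the mean of both values (x axis, log2), 1 point per tested probe set with a gene name. Red points are at least 1 higher, blue points at least 1 lower in EG with phlorizin, and dotted lines mark 1 and -1. Havcr1 (6.69) and Spp1 (5.87) stand furthest up, Cyp2c24 (-4.59) and Cyp2c11 (-4.31) furthest down, and Slc5a2 lies at 0.0039.

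The genes of tubule injury and of the stone matrix gave the largest differences. Havcr1, which encodes kidney injury molecule 1, a phosphatidylserine receptor of injured proximal tubule cells, had 14.60 in EG with phlorizin and 7.92 in phlorizin, 103-fold higher, against 17.05 in EG and 7.82 in control. Spp1, which encodes osteopontin, a phosphoprotein that binds calcium oxalate, had 16.37 in EG with phlorizin and 10.50 in phlorizin, 58.6-fold higher, against 18.52 in EG and 10.10 in control. For both genes the phlorizin and the control array lay within 0.40 of each other, and EG with phlorizin stood between them and EG. Clu, the secreted chaperone clusterin, had 17.28 in EG with phlorizin and 13.60 in phlorizin, 12.9-fold higher. Lcn2, the iron-siderophore carrier NGAL, had 9.76 in EG with phlorizin and 6.16 in phlorizin, 12.1-fold higher, against 14.11 in EG and 6.76 in control. The Lcn2 difference was 3.59 under phlorizin and 7.35 without it.

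Of 24 tested tubule injury genes, 8 were at least 1 higher, beside 2.42% of all probe sets compared. Tff3, a trefoil peptide of mucosal repair, lay at -1.22. The median difference of the 24 was 0.67, against -0.05 over all probe sets compared. Beyond those named, Timp1, an inhibitor of matrix metalloproteinases, differed by 2.22, the hyaluronan receptor Cd44 by 2.18 and the crystal-binding annexin Anxa2 by 1.38. Of 12 tested genes of the stone matrix and of crystal binding, 6 were at least 1 higher and none at least 1 lower, with a median of 0.99. That median was 0.21 over 19 members without the limit on level. Mgp, matrix Gla protein, an inhibitor of calcification, had 14.35 in EG with phlorizin and 12.83 in phlorizin. Fibronectin (Fn1) and annexin A5 (Anxa5) were each higher by 1.15, where EG exceeded control by 4.46 and 3.48. Umod, which encodes uromodulin, the most abundant protein of normal urine, lay 0.74 lower in EG with phlorizin than in phlorizin, and EG differed from control by -2.39.

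**Figure D2:**
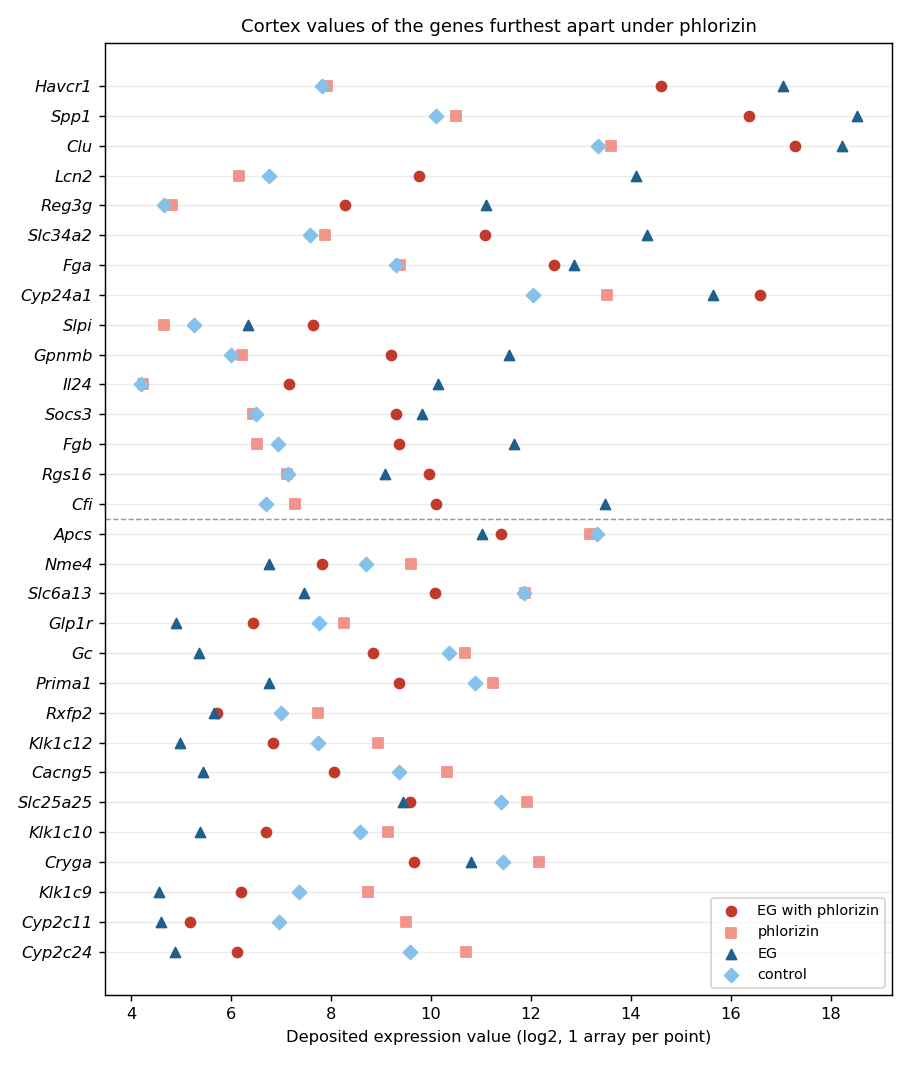
Expression values (x axis, log2) on the 4 cortex arrays of the 15 named genes furthest higher (above the dashed line) and the 15 furthest lower (below it) in EG with phlorizin than in phlorizin, 1 point per array. For Havcr1, Spp1, Lcn2 and Slc34a2 the EG array lies above the EG with phlorizin array, and for Cyp24a1, Slpi and Rgs16 below it.

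Genes of the IL-6 family of cytokines and of the acute phase formed the group with the highest median of all 52 lists examined. These cytokines act through gp130 and the transcription factor STAT3, which drives acute-phase genes in liver and in injured epithelium. All 21 tested members were above 0, 12 of them by at least 1, beside 2.42% of all probe sets compared. None was lower by 1, and the median was 1.72. The 3 fibrinogen chains were among them. Fga had 12.47 in EG with phlorizin and 9.39 in phlorizin, a difference of 3.08, and EG exceeded control by 3.56. Fgb had 9.37 in EG with phlorizin and 6.52 in phlorizin, a difference of 2.85 beside 4.73 without phlorizin. Fgg lay below background in phlorizin and at 7.30 in EG with phlorizin, at least 1.72 higher. Its 7.30 was below the 7.50 that the neg control probe sets averaged on that array. Both liver markers, which mark the organ that makes most fibrinogen, were less than 1 above background on both arrays. Without the limit on level, over 26 members, the median of the list was 0.85, and with a stricter one, a mean of the compared arrays at least 1 above background, it was 1.31. The limit can be met on an EG array alone, so it favours members that are higher with ethylene glycol. Il24 had 10.14 in EG and 4.20 in control.

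Socs3, the feedback inhibitor of gp130 signalling and itself a STAT3 target, had 9.31 in EG with phlorizin and 6.43 in phlorizin, against 9.82 in EG and 6.50 in control. Its difference of 2.88 was close to the 3.32 seen without phlorizin, and the outer medulla gave 3.03 under phlorizin. Among ligands and receptors, Lif, the leukaemia inhibitory factor, differed by 1.93 and the oncostatin M receptor Osmr by 1.72. The common chain Il6st (0.51), the kinase Jak2 (0.39), Stat3 (0.40) and the receptor chains Il6r (0.16) and Lifr (0.05) lay between -1 and 1. Il24, a cytokine of the IL-10 family, had 7.15 in EG with phlorizin and lay below background in phlorizin, so that it was at least 1.57 higher than background. That 7.15 was also below the 7.50 that the neg control probe sets averaged on the same array. The protease inhibitor Serpina3n was likewise at least 2.50 higher, and the ferroxidase Cp differed by 1.80, beside 3.52 without phlorizin. A2m, the acute-phase protease inhibitor alpha-2-macroglobulin, was at least 1.33 higher in the cortex, and its outer medulla difference under phlorizin was 5.74. Its cortex value in EG with phlorizin was also below the 7.50 of the neg control probe sets.

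**Figure D3:**
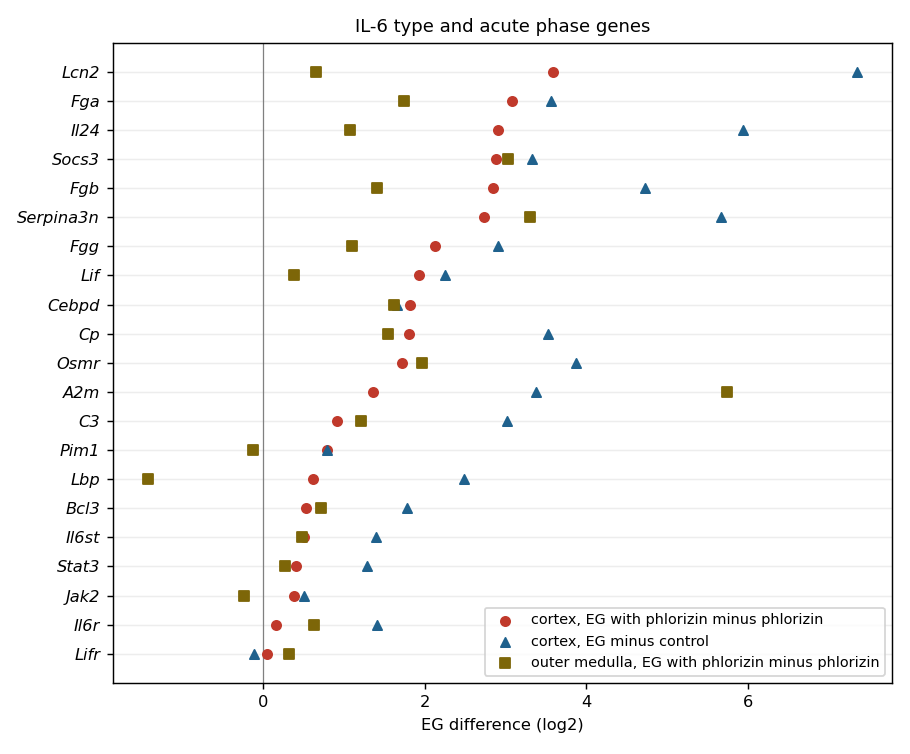
EG differences (x axis, log2) of the 21 tested IL-6 type and acute phase genes. Circles are EG with phlorizin minus phlorizin in the cortex, triangles EG minus control in the cortex, squares EG with phlorizin minus phlorizin in the outer medulla. All circles lie above 0, and 20 of 21 are smaller in size than their triangle.

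Since STAT factors bind the palindrome TTCNNNGAA, the 250 bases before and 50 after each annotated start were searched for it on both strands, in RefSeq promoters of build GRCr8. The motif was found in 9.39% of the 27457 genes with a promoter sequence and in 7.08% of the 7812 tested named genes with one. It was in 22 of 193 (11.4%) genes at least 1 higher in EG with phlorizin and in 8 of 115 (6.96%) at least 1 lower. Of the 12 IL-6 type genes at least 1 higher, 9 had a sequence and 4 of these held the motif. Those 4 are shown as the genes of this group with a match, and their share was not tested. Lcn2, with the largest difference of the list, had a sequence and no match. Each run is 50 bases upstream of the start, 5′ to 3′ on the gene's strand, with the motif in capitals. Fga lies at chr2:170671919-170671968 on the plus strand, Fgb at chr2:170701069-170701118 on the minus strand, Il24 at chr13:44910883-44910932 on the minus strand and Serpina3n at chr6:129088249-129088298 on the plus strand.
Fga: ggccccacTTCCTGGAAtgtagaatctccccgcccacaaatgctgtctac
Fgb: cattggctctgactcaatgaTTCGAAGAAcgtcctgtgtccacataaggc
Il24: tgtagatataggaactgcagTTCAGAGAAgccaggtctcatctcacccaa
Serpina3n: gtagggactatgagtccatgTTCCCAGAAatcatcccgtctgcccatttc
The motif begins 242 bases before the start of Fga, 223 before that of Fgb, 152 before that of Il24 and 123 before that of Serpina3n. The AP-1 motif TGANTCA was in 25 of the 193 higher genes (13.0%), 7 of the 115 lower genes (6.09%) and 5.34% of tested named genes with a sequence. A match describes the letters, and occupancy was not measured here.

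Complement genes passed 1 in 5 of 16 cases and genes of macrophages and dendritic cells in 8 of 18, beside 2.42% of all probe sets compared. Cfi, complement factor I, a protease that inactivates C3b, had 10.10 in EG with phlorizin and 7.28 in phlorizin, against 13.49 in EG and 6.70 in control. None of the 16 tested complement genes was at least 1 lower, 3 lay below 0, and the median was 0.82. The list counts clusterin, and includes C1s (1.15), the properdin gene Cfp (1.21) and C4b, at least 1.46 higher. C4b had 7.04 in EG with phlorizin, below the 7.50 that the neg control probe sets averaged there. All 18 tested genes of macrophages and dendritic cells lay above 0, with a median of 0.82. Gpnmb, a glycoprotein of lipid- and debris-laden macrophages, had 9.19 in EG with phlorizin and 6.22 in phlorizin, and EG exceeded control by 5.57. The mannose receptor Mrc1 had 9.35 in EG with phlorizin and 7.87 in phlorizin, and 12.64 in EG and 7.53 in control. Of the 4 macrophage markers, Cd68 had 9.76 in EG with phlorizin and 8.35 in phlorizin, and Csf1r had 9.35 and 8.07. C1qa had 10.29 and 9.62 on the same arrays. Adgre1 was the closest, with 7.55 in EG with phlorizin and 7.21 in phlorizin. In tissue RNA more cells of a type and more RNA per cell cannot be told apart.

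The chemokine and cytokine list had 5 of 17 tested genes at least 1 higher, beside 2.42% of all probe sets compared, and none lower. Ccl3, counted among the 5, lay below background in phlorizin and was only at least 0.35 higher. Ccl2, the monocyte chemoattractant, had 11.18 in EG with phlorizin and 8.46 in phlorizin, against 11.56 in EG and 8.06 in control, and its difference of 2.71 was 0.72 in the outer medulla. The interleukin 1 receptor antagonist Il1rn differed by 1.40 and Ccl6 by 1.31. Il1rn had 7.04 in EG with phlorizin, below the 7.50 that the neg control probe sets averaged there. Of 25 tested genes of the interferon response and antigen presentation, 6 were at least 1 higher, beside the same 2.42%. None was at least 1 lower, and the median was 0.66. Psmb9, an immunoproteasome subunit, differed by 1.18, the GTPase Gbp2 by 1.12 and the MHC class II gene RT1-Bb by 1.08. Ifit3, an interferon-induced gene, had 7.89 in EG with phlorizin and 6.72 in phlorizin, against 6.82 in EG and 7.06 in control. Its difference was 1.18 under phlorizin and -0.24 without it, and the phlorizin array was the lowest of the 4.

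The matrix genes were read against all probe sets, of which 2.42% passed 1 upwards under phlorizin and 9.62% without it. All 18 tested genes of extracellular matrix and fibrosis lay at or above 0, 5 passed 1, and their median was 0.75, against 2.82 in EG minus control, where 16 passed 1. Col1a1, the main chain of type I collagen, had 11.43 in EG with phlorizin and 10.38 in phlorizin, against 14.06 in EG and 10.28 in control. Col3a1 differed by 1.15 and by 3.75 without phlorizin, and thrombospondin 1 (Thbs1) by 1.38 and by 3.01. In the outer medulla under phlorizin 11 of the 18 passed 1, with a median of 1.08. The metalloproteinases Mmp12 and Mmp2 were 2.46 and 2.18 higher in EG with phlorizin. Of 15 tested proteases and inhibitors, 6 were at least 1 higher, with a median of 0.29. The median was 1.08 over those above the mean of the neg control probe sets on their brighter array. That limit was chosen after the data were seen. It uses the compared arrays themselves, so it favours members that are far apart.

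Immediate early genes are transcribed within minutes of a stimulus. All 20 tested members lay above 0, 5 by at least 1, where 2.42% of all probe sets compared were at least 1 higher. The median was 0.59, beside 0.43 in EG minus control and -0.16 in the outer medulla under phlorizin. The difference was smaller in size under phlorizin than without it for 12 of the 20. Fosl2, an AP-1 subunit, had 8.29 in EG with phlorizin and 6.57 in phlorizin. Myc, a transcription factor of growth, had 10.07 in EG with phlorizin and 8.44 in phlorizin. Egr1, a zinc finger factor, had 14.98 in EG with phlorizin and 13.72 in phlorizin. Each of these 3 genes was further apart without phlorizin, by 2.24 for Fosl2, 3.39 for Myc and 1.91 for Egr1. None of 19 tested cell cycle genes passed 1, near the share of all probe sets, of which 527 of 13279 passed in either direction. The proliferation marker Mki67 differed by 0.84, beside 2.50 without phlorizin.

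Alfacalcidol is hydroxylated to calcitriol, whose receptor induces Cyp24a1, the 24-hydroxylase that degrades it. Cyp24a1 had 16.59 in EG with phlorizin and 13.52 in phlorizin, 8.41-fold higher, against 15.64 in EG and 12.05 in control. The EG with phlorizin array was the highest of the 4, and the phlorizin array exceeded control by 1.47. Trpv5, the epithelial calcium channel of the distal convoluted and connecting tubule, had 13.17 in EG with phlorizin and 11.40 in phlorizin, and 13.76 in EG and 11.35 in control. Trpv6, its relative, lay below background on both compared cortex arrays, and no difference is given. Slc34a2, a sodium-phosphate cotransporter better known from lung and intestine, had 11.09 in EG with phlorizin and 7.87 in phlorizin, against 14.33 in EG and 7.59 in control. Gc, the vitamin D binding protein, had 8.85 in EG with phlorizin and 10.68 in phlorizin, and 5.37 in EG and 10.36 in control. Of 24 tested genes of vitamin D, calcium and phosphate, 4 passed 1 upwards, the dim Trpv6 among them, and 2 downwards. Over all probe sets 2.42% passed upwards and 1.54% downwards, so the list held a larger share of calls. Its median of -0.03 lay near the -0.05 of all probe sets.

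Phlorizin's targets barely differed between the compared arrays. Slc5a2 (SGLT2) had 16.25 in EG with phlorizin and 16.25 in phlorizin, against 15.73 in EG and 16.46 in control. Slc5a1 (SGLT1) had 7.92 in EG with phlorizin and 7.70 in phlorizin, and the basolateral glucose exits Slc2a2 (GLUT2) and Slc2a1 (GLUT1) differed by -0.17 and 0.15. Of 16 tested glucose transport genes only 1 passed 1, the monocarboxylate carrier Slc5a8, which was 1.25 lower. The list's median was -0.14. Arrays measure RNA, and the activity of the transporters was not measured.

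The S1 and S2 segments of the proximal tubule reabsorb most filtered solutes, and S3 is the straight part that follows. None of 21 tested genes of the S1 and S2 segments passed 1, and 17 lay below 0, with a median of -0.21. A call of 1 lower was made for 1.54% of all probe sets, so that no call among 21 genes is near that share. In the S3 segment 4 of 12 were at least 1 lower, with a median of -0.29, beside -1.79 without phlorizin. Slc7a13, the cystine and aspartate carrier of S3, had 15.23 in EG with phlorizin and 16.37 in phlorizin, against 8.46 in EG and 15.40 in control. The difference was -1.14 under phlorizin and -6.94 without it. The organic anion transporter Slco1a6 differed by -1.57, beside -5.77 without phlorizin. Slc6a13, the betaine and GABA carrier GAT2, had 10.08 in EG with phlorizin and 11.88 in phlorizin, and 7.46 in EG and 11.86 in control. Of 13 tested genes of gluconeogenesis and ammonia formation 2 were at least 1 lower, the glutamine carrier Slc38a3 (-1.70) and Pck1 (-1.31), the cytosolic PEP carboxykinase.

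Calls of 1 lower covered 1.54% of all probe sets under phlorizin and 12.6% without it. Respiratory chain genes lay below 0 in 21 of 22 cases, and 1 passed, near the share of all probe sets, Cycs, which encodes cytochrome c, at -1.01. Their median was -0.20, against -1.24 without phlorizin, where 14 were at least 1 lower. Intercalated cell and proton pump genes had 2 of 20 at least 1 lower, with a median of -0.41, against 13 of 20 and -2.29 in EG minus control. Oxgr1, the 2-oxoglutarate receptor of intercalated cells, had 10.84 in EG with phlorizin and 12.56 in phlorizin, and 8.79 in EG and 12.99 in control. Thick ascending limb genes had none of 15 past 1, with a median of -0.12 against -1.54. The median of 6 red cell transcripts was -0.02 under phlorizin and -2.89 without it, and Hbb, a beta globin, had 11.12 in EG with phlorizin and 10.75 in phlorizin, against 7.86 in EG and 12.04 in control.

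Of 9 tested podocyte genes, 8 lay below 0 and 1 was at least 1 lower, beside 1.54% of all probe sets compared. With 9 genes, 1 call is too few to set against that share. Their median was -0.69, against -0.05 over all probe sets compared. It was -0.89 in EG minus control and 0.15 in the outer medulla under phlorizin. Synpo, the actin-binding synaptopodin, had 9.63 in EG with phlorizin and 10.51 in phlorizin, and the sialomucin Podxl had 14.19 in EG with phlorizin and 14.90 in phlorizin. Cdkn1c, a cell cycle inhibitor of mature podocytes, was 1.02 lower, beside 0.89 lower without phlorizin. In the outer medulla Cdkn1c had 11.46 in EG with phlorizin and 10.89 in phlorizin, above its cortex values of 7.57 and 8.59. Synpo had 9.92 and 9.82 there, and Podxl 13.44 and 13.83. Nphs1, Ptpro and Wt1 of the same list were lower there than in the cortex. How specific the listed genes are to podocytes was not tested. The share of glomeruli in each piece of cortex was not tested.

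Genes of growth factors and of a less differentiated epithelium gave a few further differences. Of 26 tested genes of keratins, junctions and dedifferentiation, 4 were higher by 1 or more, beside 2.42% of all probe sets compared. None was lower by 1, and the median was 0.21. Vim, the intermediate filament vimentin of mesenchymal and regenerating tubule cells, had 14.43 in EG with phlorizin and 13.10 in phlorizin, against 17.09 in EG and 13.40 in control. The transcription factor Sox4 and keratin 18 (Krt18) each differed by 1.14. Hbegf, a ligand of the EGF receptor, had 11.55 in EG with phlorizin and 10.19 in phlorizin, and 11.16 in EG and 10.09 in control, so that its difference of 1.36 was above the 1.07 without phlorizin. Egf, made in the distal nephron, had 16.14 in EG with phlorizin and 16.58 in phlorizin, against 12.74 in EG and 16.85 in control. Grem1, a secreted BMP antagonist, differed by 1.45, beside 0.85 without phlorizin.

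Counts of fatty acid, glycolysis and oxalate genes past 1 were near those of all probe sets, of which 527 of 13279 passed in either direction. Redox genes passed more often. None of 22 tested genes of fatty acid oxidation, peroxisome and ketone bodies passed, and 19 lay below 0, with a median of -0.29 beside -0.84 without phlorizin. None of 21 genes of glycolysis and fructose use passed either, with a median of -0.20. Adh1c, an alcohol dehydrogenase of the family that starts the oxidation of ethylene glycol, had 13.88 in EG with phlorizin and 14.91 in phlorizin, against 10.33 in EG and 14.71 in control, and it alone of 15 tested oxalate and glyoxylate genes passed. Hao1, the glycolate oxidase that forms glyoxylate, lay 0.84 higher in EG with phlorizin. Gclc, the catalytic subunit of the rate-limiting enzyme of glutathione synthesis, had 15.52 in EG with phlorizin and 16.28 in phlorizin, against 11.65 in EG and 15.86 in control. Of 21 tested NRF2, glutathione and antioxidant genes 2 passed 1 upwards and 2 downwards, with a median of -0.10. Gpx2, a glutathione peroxidase of epithelia, differed by 1.52 and Akr1b8 by 1.25, Akr1c1, an aldo-keto reductase, by -1.41 and the glutathione transferase Gsta3 by -1.16. The phagocyte oxidase subunit Cybb differed by 1.10.

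**Figure D4:**
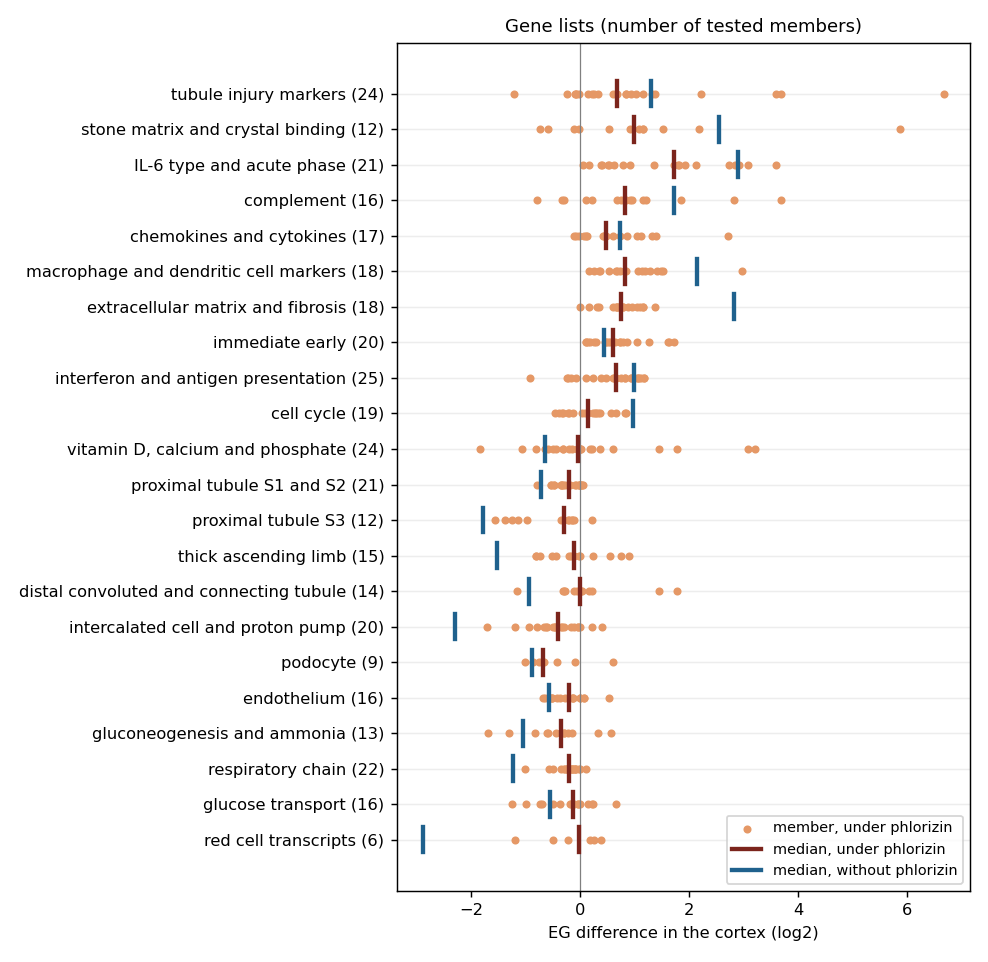
EG differences in the cortex (x axis, log2) for 22 of the gene lists, with the number of tested members in brackets. Dots are members in EG with phlorizin minus phlorizin, dark red bars their median, and blue bars the median of the same genes in EG minus control. The blue bar lies further from 0 than the red bar in each list shown but the immediate early genes, where the medians are 0.43 and 0.59.

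The genes furthest lower in EG with phlorizin were cytochrome P450 and kallikrein genes, and part of their distance lies on the phlorizin array. Cyp2c24, a P450 of the 2C family, had 6.12 in EG with phlorizin and 10.71 in phlorizin, 24.1-fold lower, against 4.87 in EG and 9.59 in control. Cyp2c11, the male-specific P450 of rat liver, lay below background in EG with phlorizin and at 9.50 in phlorizin, at least 3.95 lower, with 4.59 in EG and 6.96 in control. The phlorizin array exceeded control by 2.54 for Cyp2c11 and by 1.12 for Cyp2c24. Klk1c9, Klk1c10 and Klk1c12, members of the rat kallikrein cluster of serine proteases, differed by -2.55, -2.43 and -2.10, and the phlorizin array exceeded control by 1.39, 0.55 and 1.20. Genes of both families are alike in sequence, and how far the probes tell them apart was not tested. Klk1, the renal kallikrein of the connecting tubule, had 15.05 in EG with phlorizin and 16.21 in phlorizin, against 11.60 in EG and 16.13 in control.

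Other genes far lower had single functions. Cryga, a gamma crystallin, had 9.65 in EG with phlorizin and 12.17 in phlorizin, against 10.79 in EG and 11.45 in control, and it alone of the 15 named genes furthest lower had an EG with phlorizin value below EG. Slc25a25, the mitochondrial ATP-Mg/phosphate carrier, had 9.57 in EG with phlorizin and 11.92 in phlorizin, with 9.43 in EG and 11.41 in control. Its difference was -2.35 under phlorizin and -1.98 without it. Glp1r, the receptor of the incretin GLP-1, had 6.45 in EG with phlorizin and 8.26 in phlorizin, and Apcs, the pentraxin serum amyloid P, had 11.40 in EG with phlorizin and 13.18 in phlorizin. Ptgs2, the inducible cyclooxygenase that the macula densa also carries, was 1.29 lower, and Fkbp5, a glucocorticoid-induced chaperone, 1.16 lower, beside 2.45 and 1.46 lower without phlorizin.

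Of the 322 probe sets at least 1 higher under phlorizin, 307 were above 0 without it, and of the 205 at least 1 lower, 180 were below 0. EG minus control in the cortex had 1277 probe sets at least 1 higher (9.62%) and 1674 at least 1 lower (12.6%). Of the 322 higher under phlorizin, 267 were also higher without it, which is 82.9% of those 322 and 20.9% of the 1277. Of the 205 lower, 136 were also lower, or 66.3% of the 205 and 8.12% of the 1674. Over the 322 the median was 1.24 under phlorizin and 1.96 without, and over the 205 it was -1.18 and -1.75. Over the 1277 chosen without phlorizin, the median was 0.52 under phlorizin and 1.53 without, where the choice itself favours the second value. Across all 13279 probe sets the 2 differences had Pearson's r of 0.62 and Spearman's rho of 0.51, a description over probe sets of 4 arrays that share no array between the differences. The 4 poly-A spike-in probe sets, RNA added in the laboratory, averaged 7.67 in EG with phlorizin and 8.23 in phlorizin, and 6.42 in EG and 8.01 in control, so the arrays also differed in a technical measure, whose part in these differences was not tested. Whether the EG difference depends on phlorizin could not be tested with 1 array per group.

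**Figure D5:**
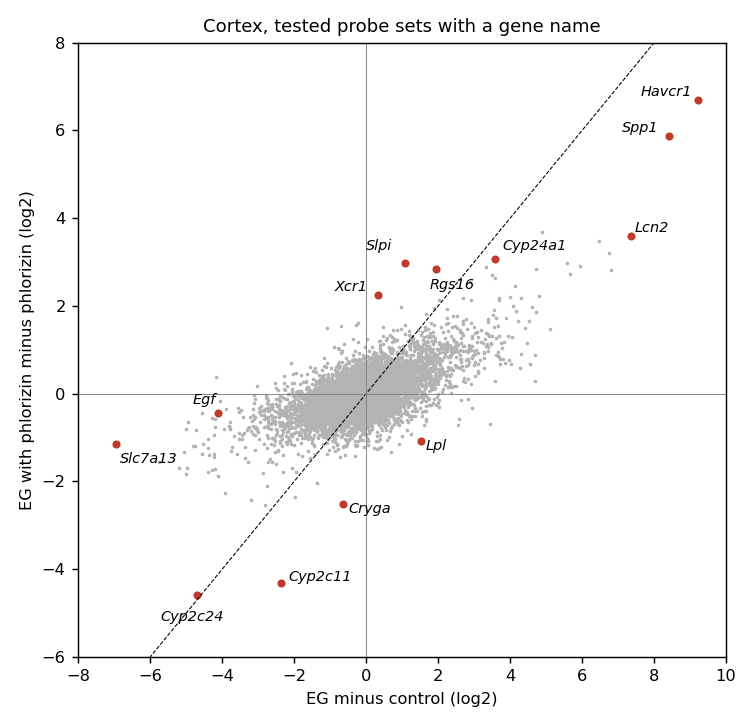
EG with phlorizin minus phlorizin (y axis, log2) against EG minus control (x axis, log2) in the cortex, 1 point per tested probe set with a gene name, with named genes in red. The dashed line marks equal differences. Havcr1, Spp1, Lcn2, Egf and Slc7a13 lie closer to 0 on the y axis than on the x axis, Slpi, Rgs16, Xcr1 and Cryga further from 0, and Lpl has opposite signs.

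Of 402 named genes at least 1 apart under phlorizin, 109 were further apart than without it. Rgs16, a regulator that shortens G protein signalling, had 9.96 in EG with phlorizin and 7.12 in phlorizin, against 9.09 in EG and 7.14 in control. Slpi, the secretory leukocyte protease inhibitor, had 7.64 in EG with phlorizin, was below background in phlorizin and so at least 2.05 higher, and had 6.34 in EG and 5.26 in control. Differences under 0.5 in size without phlorizin were found for 40 of the 402, 15 higher and 25 lower under phlorizin. Over all probe sets compared, 50.7% were under 0.5 without phlorizin. The 40 were chosen by a large difference that uses the phlorizin array, so its distance from control is partly set by the choice. Xcr1, the chemokine receptor of cross-presenting dendritic cells, had 7.84 in EG with phlorizin and 5.59 in phlorizin, with 6.69 in EG and 6.36 in control. Inmt, an indole and thioether methyltransferase, had 10.28 in EG with phlorizin and 8.67 in phlorizin, with 7.21 in EG and 7.43 in control. Akr1b8, an aldo-keto reductase, had 12.61 in EG with phlorizin and 11.36 in phlorizin, with 11.56 in EG and 11.54 in control, so that 1 of the 4 arrays stood apart.

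The other genes of that kind gave values of a more mixed sort. Prkcq, a protein kinase C of T cells, and Gng7, a G protein gamma subunit, were 1.55 and 1.24 higher in EG with phlorizin, and their phlorizin array lay 0.86 and 0.39 below control. Fgf10, a fibroblast growth factor, Igsf6, a receptor of myeloid cells, and Psd4, an ARF6 exchange factor, were 1.31, 1.21 and 1.20 higher, with the phlorizin array 0.91, 0.91 and 0.75 below control. Rad18, a ubiquitin ligase of DNA repair, was at least 0.59 higher. Gpm6a, a membrane glycoprotein, was 1.43 lower, and Lmod1 (smooth muscle leiomodin), Six2 (a nephron progenitor factor), Sorcs1 (a sorting receptor) and Anks6 (a ciliary protein) were 1.26, 1.24, 1.22 and 1.22 lower. For these 5 the phlorizin array lay 0.47 to 0.88 above control. Gpr182, an endothelial receptor, was below background in EG with phlorizin, at least 0.98 lower. Phlorizin minus control passed 1 upwards at 89 probe sets (0.67%) and downwards at 69 (0.52%), and shares the phlorizin array with the comparison described here.

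In the outer medulla, EG with phlorizin exceeded phlorizin by at least 1 at 483 probe sets (3.64%) and lay at least 1 below it at 397 (2.99%). Of the 322 higher cortex probe sets 132 were also higher there, which is 41.0% of the cortex set and 27.3% of the outer medulla set, and of the 205 lower ones 42, which is 20.5% and 10.6%. Havcr1 differed by 5.43, Clu by 4.16 and Socs3 by 3.03 in the outer medulla, beside 6.69, 3.69 and 2.88 in the cortex. Spp1 had 18.02 in EG with phlorizin and 16.41 in phlorizin there, a difference of 1.62 beside 5.87 in the cortex, from a higher level in phlorizin alone. Cldn4, a tight junction claudin, differed by 2.65 in the cortex, while both outer medulla arrays had 13.27. Lcn2 differed by 0.65, and Fga, Fgb and Il24 by 1.74, 1.41 and 1.08. A difference of a difference between zones was not tested.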

How the data were processed

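The deposited values are RMA expression values on the log2 scale, from Clariom S rat arrays. RMA is named in the submitters' processing notes, with no version, and no source used here states the base of the logarithm, taken as 2 because the values span 2.28 to 19.7. They were used without further normalization, in Python 3.11.15 with pandas 2.3.3 and numpy 2.4.6. Of 24834 entries, 1646 control and other ones were left out, and 15049 of the 23188 for transcripts had a gene symbol. Where a symbol had several probe sets (10 symbols), the one with the highest mean was kept. Probe sets entered where the highest of 8 values reached 7.48, and a call is a difference of at least 1. With 1 array per group there is no test. Limits on level, normalization, background and threshold were varied. The counting of calls was tested on simulated data.

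The 52 gene lists hold 960 genes, of which 854 had a probe set and 714 entered. Genes were named by a rule: the targets and injury genes of interest, the 15 largest in each direction, up to 5 per list, those opposite with and without phlorizin, and 15 with under 0.5 without it. Tff3, Fgg, Lif, Osmr, A2m, Il6st, Jak2, Stat3, Il6r and Lifr fall outside it and were named after their values were seen. The comparison, lists and rule were chosen with earlier results of these data known. For dim genes, precision is limited by their small distance to background.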

Additional observations from a re-analysis of the deposited data

Results flagged for a closer look

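Lpl and Or5b95 were the only named genes at least 1 apart in opposite directions with and without phlorizin in the cortex, and neither difference between the conditions was tested. Lpl, the lipoprotein lipase, had 9.81 in EG with phlorizin and 10.89 in phlorizin, a difference of -1.08, and 12.48 in EG and 10.97 in control, a difference of 1.51. In the outer medulla Lpl differed by -1.39 under phlorizin. Or5b95, an olfactory receptor gene, had 8.93 in EG with phlorizin and 7.43 in phlorizin, a difference of 1.495, and 6.46 in EG and 7.54 in control, a difference of -1.08.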

How the results depend on the processing

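The 322 higher and 205 lower probe sets became 977 and 1023 at a threshold of 1.5-fold, and 33 and 11 at a log2 threshold of 2. Without a limit on level 321 were lower, and Pearson's r with the cortex difference without phlorizin was 0.48. Quantile normalization, centring and flooring at background each left both counts within 1.5 times. With a limit chosen after seeing the data, the brighter array at or above the mean of the neg control probe sets, 261 were higher and 194 lower. Of 2130 recomputed values of single genes and lists, 2103 moved by less than 0.304, the robust SD of phlorizin minus control, and 26 moved more. A turned sign was counted only for differences of at least 1, and 1 was found. That was Trpv6, below background on both arrays, which gave -0.0332 when floored at background. Smaller differences could turn too. Slc2a3, also below background on both arrays, went from 0.66 to -0.0332. No paired analysis was possible because each group has 1 array. No replicate could be left out, so the spread between animals is unknown.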
